A study of Mus musculus with 6 samples.

Results

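The P2X channel genes are 7 paralogs, P2rx1 to P2rx7, that encode the subunits of ATP-gated cation channels. They were chosen by gene symbol: a member is a row whose platform annotation gives 1 symbol and that symbol is one of the 7. All 7 had exactly 1 row each, out of 14852 genes with a row of their own. The family was picked because P2rx3 had a large difference between the groups in these same arrays, so the values of P2rx3 are a description and support nothing, and the paralogs are set beside it. RNA was measured in myotubes of C2C12, a mouse myoblast cell line whose cells fuse into multinucleate fibres on differentiation. The 3 ATF4 samples had received adenovirus carrying eGFP, a green fluorescent protein, and FLAG-tagged ATF4, a bZIP transcription factor of the amino acid and stress response. The 3 control samples had received adenovirus carrying eGFP and FLAG-tagged ATF4 without its bZIP domain (ATF4deltabZIP), which the submitters describe as transcriptionally inactive. Both groups were thus infected and both carried eGFP, a virus and part of ATF4, and both were harvested 48 hours after infection. No uninfected myotubes were analysed here, and the labels do not say whether the 3 samples of a group were separate cultures, so the spread between them may be technical.

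P2X subunits assemble as trimers in the cell membrane, and each subunit crosses the membrane with both ends inside the cell. Extracellular ATP, released by stretched, active or damaged cells, opens the pore to sodium and calcium. In muscle the family is studied for the response of satellite cells and of dystrophic fibres to ATP, while P2X3 is best known from pain-sensing and visceral sensory neurons.

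Values are the authors' deposited transcript-level values from Affymetrix mouse exon arrays, 1 array per sample and 16700 rows, read as log2. The values of different rows come from different probes and are not compared as levels. The 2 arrays with sample number 3 stood apart: their interquartile range was 1.80 (ATF4) and 1.63 (control), against 2.19 to 2.28 on the other 4 arrays. The main results are also given without both. In tissue or culture RNA of this kind, fewer cells of a type and less RNA per cell cannot be told apart. The row of Atf4 had 9.02, 8.47 and 8.96 in ATF4 samples 1 to 3 and 9.40, 8.62 and 8.55 in control samples 1 to 3. Both viruses carry Atf4 sequence, so that row does not check the labels. Over 8 measured myotube markers of 10 listed, the median value was 8.51 to 9.28 on ATF4 arrays and 8.71 to 9.74 on control arrays. The markers were not alike: Tnnt3 lay above 99.5% to 99.7% of all rows on ATF4 arrays and above 99.7% to 99.8% on control arrays. Actn2 lay above 48.7% to 66.0% of all rows on ATF4 arrays and above 58.5% to 73.1% on control arrays.

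P2rx3 (transcript cluster 6888340) was higher on every ATF4 array than on any control array. Its value was 7.76, 7.20 and 7.48 in ATF4 samples 1 to 3 and 4.56, 4.43 and 5.03 in control samples 1 to 3. The groups were separated by more than 2 units, while the values within a group spanned less than 1 unit. The means were 7.48 ± 0.28 in ATF4 samples and 4.67 ± 0.32 in control samples (SD, n = 3 each), a difference of 2.81 (standard error 0.22, 95% interval 2.31 to 3.30). Within sample numbers 1, 2 and 3 the difference was 3.20, 2.77 and 2.45. Among all rows the difference of P2rx3 ranked 9 from the top, and 0.0659% of rows had a difference of at least 2.5. Without both number 3 arrays it was 2.98.

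The signal of P2rx3 moved across much of the range of the arrays. P2rx3 lay above 77.6% to 85.5% of all rows on ATF4 arrays and above 16.8% to 21.8% of them on control arrays. Olfactory receptor genes, most of which are silent outside the nose, have 719 rows here and were used, after the data had been seen, to show where rows of mostly silent genes lie. P2rx3 was above 99.7% to 100% of these rows on ATF4 arrays and above 68.7% to 73.6% of them on control arrays. In control myotubes it thus read within the range of those rows, so no fold is given for it, and its difference, rank and gap over the paralogs are those of array signals, not of RNA amounts.

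**Figure D1:**
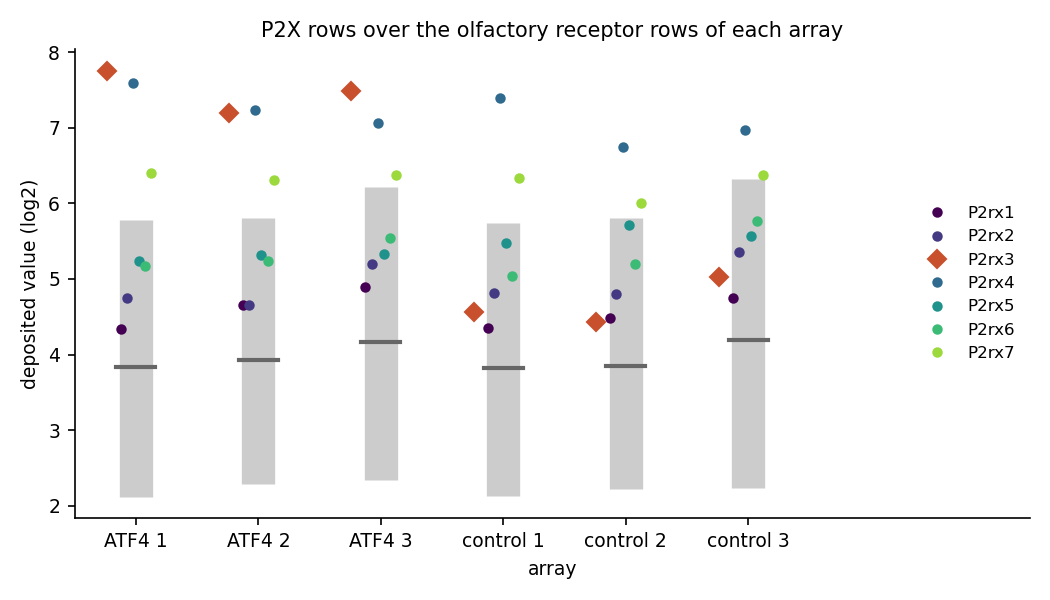
Deposited values (log2, vertical axis) of the 7 P2X rows on each of the 6 arrays (horizontal axis), drawn over the 5th to 95th percentile of 719 olfactory receptor rows (grey bar, with their median as a line). P2rx3 (diamonds, drawn beside the bar) lies above the range of the grey bar on the 3 ATF4 arrays and within it on the 3 control arrays. P2rx1, P2rx2, P2rx5 and P2rx6 stay within it throughout, and P2rx4 and P2rx7 stay above it. Rows have different probes, so heights of different genes are not compared.

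By limma over all rows (adjusted p below 0.05), 1 of the 7 members was called, P2rx3, against 0.593% of all rows called (0.569% higher and 0.024% lower). In a fit blocked by sample number, whose adjusted p is given as blocked, it was again 1 of 7, against 3.56% of all rows (2.4% higher and 1.16% lower). Since the family was chosen through this contrast, nothing is read from those counts. None of the 6 paralogs passed with the block or without it (limma adjusted p = 1 for each without it, 0.155 to 0.948 with it). By unadjusted limma p below 0.05, 0 of 6 paralogs passed without the block and 1, P2rx5, with it, where 5.26% of all rows did without the block and 17.7% with it.

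The paralogs' differences ran from -0.29 (P2rx5) to 0.26 (P2rx4), 3 above 0 and 3 below, with a median of 0.05 beside -0.03 over all 16700 rows. The difference of P2rx3 exceeded the paralogs' median by 2.76, and within sample numbers 1, 2 and 3 by 3.17, 2.66 and 2.53. The highest 95% limit of any paralog's difference was 0.75 (P2rx4) and the lowest was -0.67 (P2rx5). In the blocked fit the interval of P2rx5 was -0.51 to -0.08 and did not hold 0, while those of the other 5 paralogs did. P2rx1, P2rx2, P2rx5 and P2rx6 read within the range of the olfactory receptor rows in both groups, so their intervals describe the signal and set no limit on a change in RNA.

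**Figure D2:**
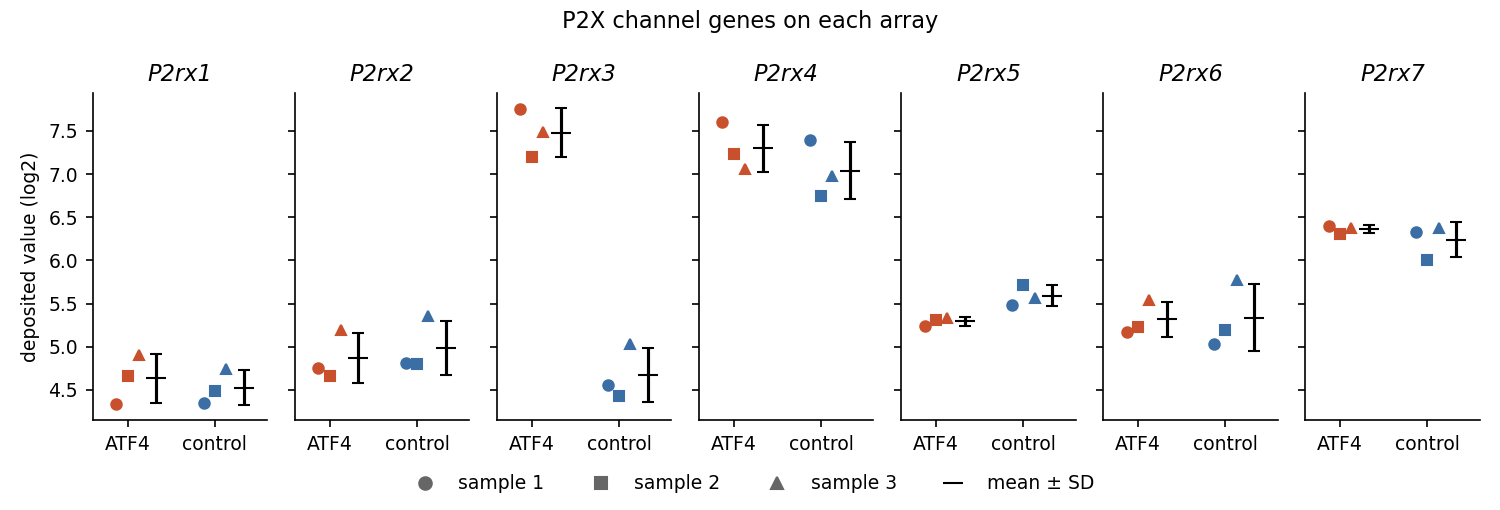
Deposited value (log2, vertical axis) of each P2X gene in the ATF4 samples (left in each panel) and the control samples (right). Symbols mark sample numbers 1 to 3 and bars the mean ± SD of 3 arrays. P2rx3 is at 7.20 to 7.76 in ATF4 samples and at 4.43 to 5.03 in control samples, and P2rx5 is the other gene whose groups do not overlap.

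Among the paralogs linked to sensory neurons, P2rx2 encodes the subunit that joins P2X3 in mixed trimers. P2rx2 (transcript cluster 6941031) had 4.75, 4.66 and 5.20 in ATF4 samples 1 to 3 and 4.81, 4.80 and 5.35 in control samples 1 to 3. The sample of number 3 was the highest of each group and the groups overlapped. Its difference was -0.12 (standard error 0.22, 95% interval -0.62 to 0.38), and it was lower in ATF4 in each of the 3 sample numbers, by 0.06 to 0.15 in size. The direction turned without control sample 3 (0.06).

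P2X5 is known from differentiating skeletal muscle cells of rat and mouse. P2rx5 (transcript cluster 6782288) had 5.24, 5.31 and 5.33 in ATF4 samples 1 to 3 and 5.48, 5.72 and 5.57 in control samples 1 to 3. Each ATF4 value was below each control value, and the within-number differences were -0.24, -0.41 and -0.24. Its difference of -0.29 (standard error 0.17, 95% interval -0.67 to 0.08) did not pass (limma adjusted p = 1, blocked 0.155). Of the 6 paralogs, 1 had groups that did not overlap, P2rx5, against 9.12% of all rows. P2rx3, whose groups did not overlap either, was chosen through this contrast and is not counted. Without both number 3 arrays the difference of P2rx5 was -0.32.

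P2X4 is a broadly expressed subunit found on endosomes and lysosomes as well as at the surface. P2rx4 (transcript cluster 6934164) had 7.60, 7.23 and 7.06 in ATF4 samples 1 to 3 and 7.40, 6.75 and 6.97 in control samples 1 to 3. Sample 1 was the highest of both groups, and within each sample number the ATF4 value was the higher one, by 0.20, 0.48 and 0.09. The difference of 0.26 (standard error 0.22, 95% interval -0.24 to 0.75) did not pass (limma adjusted p = 1, blocked 0.286), and it ranged from 0.11 to 0.44 when 1 array was left out.

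P2X7 needs more ATP than the other subunits, opens a path for large molecules and starts the NLRP3 inflammasome in macrophages. P2rx7 (transcript cluster 6934162) had 6.40, 6.31 and 6.37 in ATF4 samples 1 to 3 and 6.33, 6.01 and 6.38 in control samples 1 to 3. The groups overlapped, and control sample 2 was the one value that lay apart. Without it the difference of 0.12 (standard error 0.18) became 0.01.

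The other 2 paralogs had overlapping groups and the highest value of each group on the number 3 array. P2rx1, whose channel is known from smooth muscle and platelets (transcript cluster 6782274), had 4.34, 4.66 and 4.90 in ATF4 samples 1 to 3 and 4.35, 4.48 and 4.74 in control samples 1 to 3, a difference of 0.11 (standard error 0.20, 95% interval -0.34 to 0.56). P2rx6, once named P2xm after muscle (transcript cluster 6839751), had 5.17, 5.23 and 5.55 in ATF4 samples 1 to 3 and 5.03, 5.20 and 5.77 in control samples 1 to 3. Its difference was -0.02 (standard error 0.23, 95% interval -0.52 to 0.48), which turned above 0 under 6 alternatives other than leaving out 1 array, the 4 rescalings among them. The rise on the number 3 arrays, against the mean of samples 1 and 2, was 0.40 (ATF4) and 0.33 (control) for P2rx1 and 0.34 (ATF4) and 0.66 (control) for P2rx6. The median of the olfactory receptor rows also read highest on those arrays, at 4.16 (ATF4) and 4.19 (control) against 3.83 to 3.93 on the other 4, and its part in these values was not tested.

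**Figure D3:**
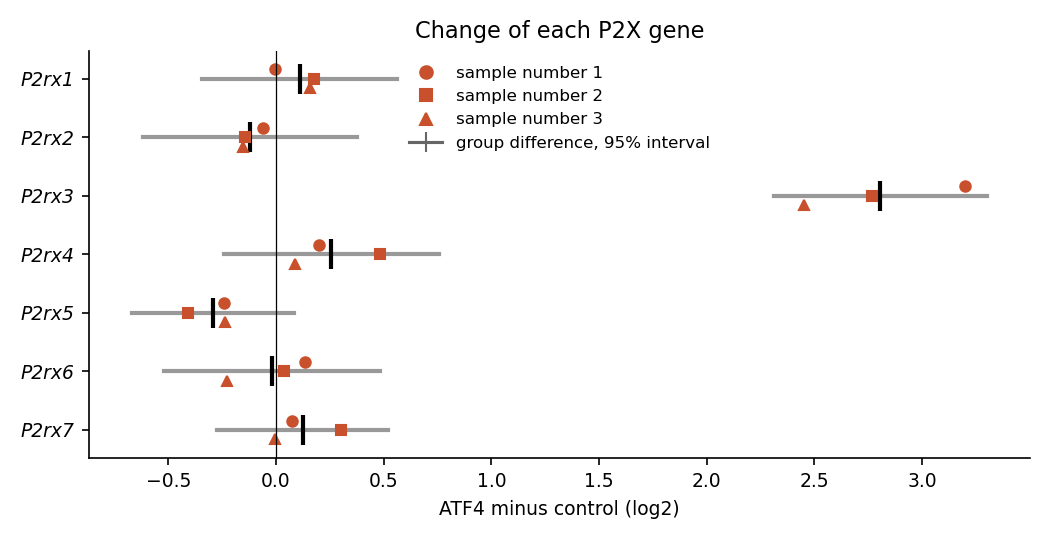
ATF4 minus control (log2, horizontal axis) for each P2X gene. Symbols are the differences within sample numbers 1 to 3, the tick is the group difference and the grey line its 95% interval from the limma fit. The interval of P2rx3 runs from 2.31 to 3.30, and those of the 6 paralogs, in this fit without the block, hold 0 and end at or below 0.75.

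Of the measured neighbours of P2rx3 on chromosome 2, none passed. In the RefSeq gene order (assembly GRCm38.p6, used for order and names) the 3 nearest measured genes on one side were Prg3, next to it, Prg2 and Slc43a3, and on the other side Aplnr, Olfr992 and Olfr993. Prg2 and Prg3 encode eosinophil granule proteins and Aplnr the apelin receptor. Prg3 had 4.42, 4.29 and 4.50 in ATF4 samples and 4.32, 4.41 and 4.69 in control samples. The 6 differences ran from -0.25 to 0.03, and 0 of 6 passed by limma with the block or without it, nor did any at an unadjusted p below 0.05. Slc43a3 read above the range of the olfactory receptor rows. Prg2, Prg3, Aplnr, Olfr992 and Olfr993 read within it in both groups, so their values set no limit on a change in RNA. P2rx4 and P2rx7 lie near each other on chromosome 5, and P2rx1 and P2rx5 on chromosome 11. The 7 members had 35 distinct measured neighbours, with P2rx4 and P2rx7 counted among them as neighbours of each other. Of the 35, 0 passed by limma and 2 did with the block, against 3.56% of all rows. At an unadjusted p below 0.05 there were 2 of 35, and 8 of 35 with the block, against 5.26% and 17.7% of all rows. The 2 that passed are named here after their values were seen. One is Atp2a3, next to P2rx1, which encodes a calcium pump of the endoplasmic reticulum. Atp2a3 had 6.04, 5.71 and 6.31 in ATF4 samples and 4.62, 4.72 and 5.31 in control samples, with no overlap (limma adjusted p = 0.0831, blocked 0.0103). The other is Haspin, a mitotic kinase gene next to P2rx5, with a difference of -0.66 (limma adjusted p = 0.201, blocked 0.0158).

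The rest of the ATP signalling machinery was listed by role, and apart from P2X genes it held no gene past the threshold without the block. At an unadjusted limma p below 0.05 there were 1 of 8 P2Y receptors, 0 of 7 release genes, 2 of 12 turnover genes and 1 of 6 inflammasome genes, against 5.26% of all rows. With the block these counts were 3 of 8, 2 of 7, 6 of 12 and 1 of 6, against 17.7% of all rows. The 8 genes listed as P2Y receptors, P2ry10 among them, were chosen by name, and most encode G-protein-coupled receptors for nucleotides. All 8 were measured and 0 passed, with a median difference of -0.07 against -0.03 over all rows. All 8 rows read within the range of the olfactory receptor rows in both groups, so their values set no limit on a change in RNA. P2ry14, the receptor for UDP-sugars, had 5.17, 5.67 and 4.55 in ATF4 samples 1 to 3 and 4.25, 4.44 and 4.40 in control samples 1 to 3. The groups did not overlap, but ATF4 sample 3 was close to the control samples, and the difference of 0.77 did not pass (limma adjusted p = 0.497, blocked 0.131). P2ry2, a receptor for ATP and UTP, had -0.28 (standard error 0.20). Of 4 listed adenosine receptors 1 was measured, Adora3, whose brighter row of 2 had a difference of -0.10 and also read within that range in both groups.

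Genes of ATP release and breakdown likewise did not pass without the block. Of 7 measured release genes (8 listed) 0 passed, with a median difference of 0.04. The vesicular nucleotide transporter gene Slc17a9 had 5.73, 5.68 and 6.23 in ATF4 samples 1 to 3 and 5.51, 5.44 and 6.01 in control samples 1 to 3. It was higher in ATF4 by 0.21 to 0.23 in each sample number (limma adjusted p = 1, blocked 0.225). Panx2, a pannexin gene, had -0.29 (standard error 0.32). The rows of Panx2, Panx3, Gjb2 and Calhm2 read within the range of the olfactory receptor rows in both groups and set no limit on a change in RNA. Of 12 measured genes that break down or clear extracellular nucleotides and adenosine (13 listed), 0 passed and 1, Enpp3, was higher with the block, against 2.4% of all rows higher there. Enpp3, an ectoenzyme that splits nucleotides, had 6.52, 6.84 and 6.33 in ATF4 samples 1 to 3 and 5.95, 6.36 and 5.83 in control samples 1 to 3. Its groups overlapped, yet the ATF4 value was higher in each sample number, by 0.57, 0.48 and 0.50 (limma adjusted p = 0.802, blocked 0.0329). Acpp, a phosphatase that makes adenosine from AMP on sensory neurons, had 5.90, 6.17 and 5.62 in ATF4 samples 1 to 3 and 5.09, 5.32 and 5.38 in control samples 1 to 3 (limma adjusted p = 0.388, blocked 0.0839). Entpd1, Entpd3, Entpd8, Alpl and Ada of the turnover list read within the olfactory receptor range in both groups, with the same limit.

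Of 6 genes that act downstream of P2X7 in the inflammasome 0 passed, with a median difference of 0.09. The cytokine gene Il1b had 5.69, 5.86 and 5.53 in ATF4 samples and 4.96, 4.69 and 5.19 in control samples, without overlap (limma adjusted p = 0.214, blocked 0.0800). Gsdmd, the pore-forming gasdermin gene, had -0.23 (standard error 0.17). The rows of Nlrp3 and Casp1 read within the range of the olfactory receptor rows in both groups and set no limit on a change in RNA.

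**Figure D4:**
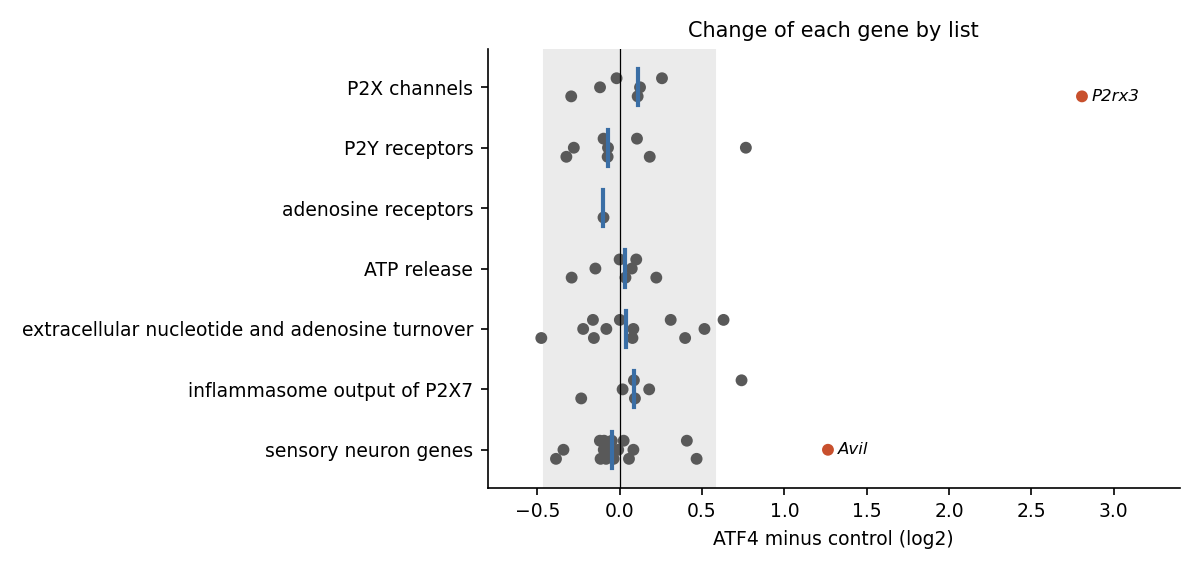
ATF4 minus control (log2, horizontal axis) for every measured gene of the P2X family and of 6 related lists (rows). Each point is 1 gene, orange with limma adjusted p below 0.05, blue ticks are list medians and the grey band holds the middle 95% of all 16700 rows. The list medians lie between -0.10 and 0.11, and P2rx3 and Avil are the 2 genes past the threshold.

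Because P2X3 is a channel of sensory neurons, other genes of those neurons were listed as well. Of 17 measured (19 listed), 1 was higher, 0 were lower and 16 did not pass, with a median difference of -0.05. Over all rows 0.569% were called higher and 0.024% lower. The sodium channel gene Scn10a had -0.09, the capsaicin receptor gene Trpv1 had 0.08 and the transcription factor gene Isl1 had -0.01. Each of these rows read within the range of the olfactory receptor rows in both groups. Their values thus set no limit on a change in RNA. At an unadjusted limma p below 0.05 there were 2 of 17, and 3 of 17 with the block, against 5.26% and 17.7% of all rows. Trpm8, the cold and menthol receptor gene, had 5.06, 4.97 and 5.22 in ATF4 samples 1 to 3 and 4.48, 4.52 and 4.86 in control samples 1 to 3. Its groups did not overlap, and its difference of 0.47 did not pass in either fit (limma adjusted p = 0.741, blocked 0.0528), though it did with array weights. The Trpm8 row also read within the range of the olfactory receptor rows in both groups. The gene that passed was Avil, which encodes advillin, an actin-binding protein of sensory neurons. Avil had 6.32, 6.40 and 6.39 in ATF4 samples 1 to 3 and 4.91, 4.98 and 5.43 in control samples 1 to 3. The groups did not overlap, and its difference was 1.26 (standard error 0.19, limma adjusted p = 0.0158, blocked 0.00832). On control arrays Avil read within the range of the olfactory receptor rows, above 83.3% to 83.9% of them. Its difference is thus that of array signals, not of RNA amounts. The call ended without ATF4 sample 1, ATF4 sample 2 or control sample 1 (limma adjusted p = 0.0980, 0.0800 and 0.0993). General markers of neurons and glia had differences of -0.09 to 0.08 (5 of 6 measured, 0 passed). Among them Snap25, Syt1, Rbfox3 and Mbp read within the range of the olfactory receptor rows in both groups. Of 4 leukocyte markers, Ptprc had 4.87, 5.16 and 4.78 in ATF4 samples and 3.94, 4.18 and 4.45 in control samples, and Cd14 had a difference of 0.79. Both had groups that did not overlap, against 9.12% of all rows, and neither passed (limma adjusted p = 0.222 and 0.514, blocked 0.0568 and 0.105). The differences of Adgre1 and Csf1r were 0.00 in size. Of the 4 leukocyte markers, 2 were below an unadjusted limma p of 0.05 without the block and 2 with it, against 5.26% and 17.7% of all rows. Ptprc, Adgre1 and Csf1r read within the range of the olfactory receptor rows in both groups. The median over the 4 leukocyte markers was 4.76 to 4.95 on ATF4 arrays and 4.29 to 4.90 on control arrays. Myotube markers had a median difference of -0.30, myoblast markers -0.09, endothelial markers -0.02 and adipocyte markers -0.23, and 0 of these 15 passed. At an unadjusted limma p below 0.05 there was 1 of 15, and 8 with the block, against 5.26% and 17.7% of all rows. All 8 measured myotube markers had a lower mean in ATF4 samples, with differences of -0.73 to -0.02. Of these 8, 6 were below an unadjusted p of 0.05 with the block, against 17.7% of all rows. After adjustment 1 passed with the block, Mef2c, a muscle transcription factor gene (-0.73, limma adjusted p = 0.671, blocked 0.0289). Over all rows 1.16% were called lower with the block. The part of any of these markers in the P2rx3 values was not tested.

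The rows most like P2rx3 over the 6 arrays, by Pearson r among rows with 1 symbol, were Anapc11 (0.998), Dgat2 (0.997), Abca1 (0.995), Saa3 (0.993), Slc4a10 (0.992) and Chac1 (0.992). With 2 separate groups of 3 arrays, such an r mostly reflects the gap between the groups and ignores its size. The differences were 0.30 for Anapc11, a subunit gene of the anaphase-promoting complex, 0.89 for Dgat2, a triglyceride synthesis gene, and 0.86 for Abca1, a cholesterol exporter gene. Anapc11 did not pass (limma adjusted p = 1), and Dgat2 and Abca1 passed with the block alone (limma adjusted p = 0.0139 and 0.0143, against 0.0617 and 0.0646 without it). The acute-phase gene Saa3 (3.74), the bicarbonate transporter gene Slc4a10 (2.19) and the glutathione-degrading enzyme gene Chac1 (1.85) passed in both fits. In control samples Abca1, Saa3 and Slc4a10 read within the range of the olfactory receptor rows. Their differences are thus those of array signals, not of RNA amounts. On deviations from the group means the r with P2rx3 was 0.970 for Anapc11, 0.967 for Dgat2, 0.842 for Abca1, 0.735 for Saa3, 0.704 for Slc4a10 and 0.768 for Chac1. None of the paralogs reached 0.6 over the 6 arrays, P2rx7 having the highest r (0.557) and P2rx5 the lowest (-0.908). On deviations from the group means P2rx7 had 0.698, P2rx2 had 0.622, P2rx6 0.566, P2rx4 0.290, P2rx1 0.072 and P2rx5 -0.413. Each r rests on 6 arrays and was not tested. The rows most like P2rx3 were picked for a high r and the paralogs were not, so nothing is read from their closeness.

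ATF4 acts on DNA with C/EBP partners at composite elements of the form TGATGNAA. These letters were searched on both strands of the 300 bases around gene starts (250 before, 50 after), taken from RefSeq on GRCm38.p6, with TGATGCAA counted as a subset. Of all 32851 windows 3.97% held TGATGNAA and 0.895% TGATGCAA. By gene, 4.51% and 1.03% of 27025 genes had a window with them. P2rx1, P2rx4, P2rx6 and P2rx7 had 5 windows in that table, none with a match, and no window was used for P2rx2, P2rx3 or P2rx5. Of the 6 rows most like P2rx3, 5 had a window and 1, Chac1, a match, and the Avil window also held one. The window of P2rx4 is shown as the paralog whose row has the largest difference of those with a window, beside those of Avil and Chac1, where capitals mark the match. The search was made after the values were seen, a match is not a binding site, and its absence says only that these letters are not in the window. The windows are chr5:122707294-122707593 (P2rx4), chr10:127000459-127000758 (Avil) and chr2:119350992-119351291 (Chac1), each on the plus strand. The match begins at -17 relative to the gene start in Avil and at -193 in Chac1, where it lies on the other strand.
P2rx4: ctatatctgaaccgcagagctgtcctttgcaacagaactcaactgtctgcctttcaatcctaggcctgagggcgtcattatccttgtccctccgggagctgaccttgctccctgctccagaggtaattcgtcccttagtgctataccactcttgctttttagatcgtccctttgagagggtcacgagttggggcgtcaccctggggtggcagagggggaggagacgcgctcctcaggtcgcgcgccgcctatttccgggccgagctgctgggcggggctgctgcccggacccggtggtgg
Avil: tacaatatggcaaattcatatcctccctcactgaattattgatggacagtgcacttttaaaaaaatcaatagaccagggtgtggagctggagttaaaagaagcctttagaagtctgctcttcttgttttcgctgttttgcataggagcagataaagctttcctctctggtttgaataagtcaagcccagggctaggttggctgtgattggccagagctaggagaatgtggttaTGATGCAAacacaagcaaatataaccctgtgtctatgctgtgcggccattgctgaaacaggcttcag
Chac1: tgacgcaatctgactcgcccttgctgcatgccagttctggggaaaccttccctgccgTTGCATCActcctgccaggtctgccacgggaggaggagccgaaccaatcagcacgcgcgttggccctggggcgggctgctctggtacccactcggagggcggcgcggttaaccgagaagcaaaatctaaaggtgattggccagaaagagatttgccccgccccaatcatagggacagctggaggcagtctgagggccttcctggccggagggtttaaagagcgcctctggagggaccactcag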

How the data were processed

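RNA of 6 C2C12 myotube samples (3 ATF4, 3 control) was amplified from 50 ng and measured on Affymetrix mouse exon arrays. The deposited values are on the log2 scale, as inferred from their range; GCOS, RMA and mm9 are named in the submitters' processing notes, with versions and filters not given in the sources used here. Of 16700 rows, 14988 carried 1 gene symbol, 1018 several and 694 none. RefSeq names, gene order and promoter windows are of GRCm38.p6.

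Each row was fitted in R 4.3.3 using limma 3.58.1 for the difference ATF4 less control (lmFit, eBayes, two-sided, no filter, Benjamini-Hochberg over all rows). Residual degrees of freedom were 4, and 2 with the block. The fit was tested on simulated data. A permutation of 3 against 3 arrays cannot give an exact two-sided p under 0.1 and was not used. For a gene with several rows the brightest was taken.

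Pairing was checked from the sample numbers in the titles: deviations from group means correlated by 0.578, 0.636 and 0.782 for arrays of the same number, and by -0.666 to 0.221 otherwise. The numbers were read as pairs.

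The members, gene lists and tests were chosen with earlier results of these data known. Genes named are the 7 members, Atf4, the 3 nearest measured genes on each side of P2rx3, the 6 rows most like P2rx3 and, in each pathway list, genes past the threshold or else the 2 with the smallest p. A few other list members, markers and the neighbours Atp2a3 and Haspin were named after their values were seen. Alternatives were the block, 4 rescalings, 2 filters, 3 variance models, arrays left out and 1 row per gene.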

Additional observations from a re-analysis of the deposited data

How the results depend on the processing

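P2rx3 stayed above the control level under all 18 alternatives, with differences of 2.67 to 3.00, and was the 1 member past the threshold in each. It was chosen through this contrast, so nothing is read from those calls. The block, the 2 filters, the intensity-trend and robust variance models and 1 row per gene leave its difference at 2.81 by construction. P2rx3 lay above 16.8% to 21.8% of rows on control arrays. It thus passed the filters, set on means over all arrays, through its ATF4 values. The difference of P2rx3 exceeded the paralogs' median by 2.59 to 2.90 under the 13 alternatives in which that gap was computed. Among them the block, median centring and 1 row per gene leave the gap at 2.76 by construction. The sample number as a replicate block did not change the call of any P2X member. The difference of P2rx4 and of P2rx7 stayed above 0 and that of P2rx5 below 0 under every alternative that kept the row; leaving out rows below the 25th percentile removed P2rx1, and leaving out those below the median removed P2rx1, P2rx2, P2rx5 and P2rx6. P2rx6, at -0.02, turned to 0.014 with quantile normalization again, 0.024 with median centring, 0.019 with interquartile scaling, 0.041 with cyclic loess, 0.11 with array weights and 0.086 without both number 3 arrays, and ran from -0.17 (without control sample 1) to 0.20 (without control sample 3) when 1 array was left out. In such fits P2rx1 ran from -0.023 (without ATF4 sample 3) to 0.26 and P2rx2 from -0.28 to 0.062 (without control sample 3). None of these differences passed the threshold, and the cause was not tested. Rows past the threshold were 99, and 594 with the block (400 higher and 194 lower, against 95 and 4), 57 with median centring, 151 with cyclic loess, 561 with array weights, 157 without both number 3 arrays, and 38 (without ATF4 sample 1) to 243 (without control sample 3) with 1 array left out. Of the genes of the related lists 1 passed, Avil; 2 did with the block (Enpp3 added), 5 with array weights, 0 with rows below the median left out, which removes Avil, and 0 to 2 with 1 array left out. The small number of arrays limits the precision. Rows of P2X and listed genes that read within the range of olfactory receptor rows may hide changes.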
